A study of Mus musculus with 3 samples.

Results

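A set of 10 genes of the matrix metalloproteinase (MMP) system was followed through 3 RNA-Seq libraries of the mouse. They are the 7 metalloproteinases Mmp8, Mmp9, Mmp12, Mmp13, Mmp14, Mmp19 and Mmp25 and the 3 tissue inhibitors of metalloproteinases Timp1, Timp2 and Timp3. They were chosen as a list of names, with earlier results of these data known, and make up 10 of the 22238 genes listed in all 3 libraries. The same genes hold 23 Mmp and 4 Timp genes in all.

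The libraries, all labelled WT (wild type), came from female C57BL/6J mice aged 10 to 12 weeks with experimental autoimmune encephalomyelitis (EAE), a model of multiple sclerosis. Every mouse was immunized with a peptide of myelin oligodendrocyte glycoprotein in complete Freund's adjuvant and received 250 ng of pertussis toxin at 2 and again at 24 h, so no healthy mouse was compared. Cells were sorted at days 14 to 15, when paralysis was most severe. Bone marrow (BM) monocytes were CD45+ CD11b+ Ly6C-high Ly6G- CD11c- cells pooled from 13 mice of 2 experiments. Spinal cord (SC) monocytes were CD45-high CD11b+ CD64+ Ly6C-high Ly6G- cells, and SC monocyte-derived antigen-presenting cells (APCs) were the Ly6C-low or negative cells of the same sort, each pooled from 18 mice of 3 experiments. A label of the APC library gives bone marrow as its source, whereas its title and tissue label give the spinal cord, which is followed here. Spinal cords were digested with collagenase D and bone marrow was not, so the tissue and its preparation cannot be told apart.

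Each population was 1 library, so differences between them have no replicate check and were not tested, and no p-values are printed. The estimated reads summed to 33280643 in BM monocytes, 27283795 in SC monocytes and 28209589 in APCs. Levels are TPM, a share of transcripts that takes gene length into account, rescaled to the same sum over the common genes, with a 95% exact Clopper-Pearson interval. Fold changes compare scaled reads, with a 98% interval, and a gene was called higher or lower if the whole interval was past a 2-fold change and TPM was over 3 in 1 of the 2 libraries. Both intervals hold counting error alone, and reads copied by PCR are not separate molecules. The words "rose" and "fell" are used of called genes and compare libraries, not conditions. In bulk samples, fewer cells of a type and less RNA per cell cannot be told apart.

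MMPs are zinc-dependent proteases that cut collagens, laminins, elastin and other matrix proteins, and also release or trim cytokines and chemokines. Most are made as inactive precursors that are opened by other proteases, and TIMPs block the active site. In EAE, proteolysis of the basement membranes around spinal cord vessels is a known step in the entry of leukocytes, and myeloid cells are a known source of the enzymes.

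The make-up of the family differed in each library. Nearly all MMP transcripts of BM monocytes came from Mmp8, the neutrophil collagenase, which held 96.5% of the summed TPM of the 7 genes. In SC monocytes Mmp14, a membrane-anchored protease, held 45.9%, Mmp8 23.5%, Mmp19 17.4% and Mmp12 10.7%. In APCs Mmp12, the macrophage elastase, held 47.5%, Mmp14 32.5%, Mmp8 13.2% and Mmp19 4.11%. By TPM the leading gene was thus a different one in each population. By reads Mmp14 led in APCs as in SC monocytes, at 16343 reads against 13171 of Mmp12. The lead of Mmp12 in APCs depended on its effective length, which was 1275 bases there, 1713 in SC monocytes and 4105 in BM monocytes. At the length of SC monocytes its level in APCs would be 369 TPM and at that of BM monocytes 154 TPM, beside 339 TPM of Mmp14.

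The summed TPM of the 7 MMP genes was 733 in BM monocytes, 505 in SC monocytes and 1044 in APCs. Without Mmp8 it was 25.6, 386 and 906. The summed TPM of the 3 TIMP genes was 8.79, 97.4 and 87.0, so MMP exceeded TIMP transcripts 83.4-fold in BM monocytes, 5.18-fold in SC monocytes and 12.002-fold in APCs. The order of these ratios rested on Mmp8. Without it the ratio was 2.91 in BM monocytes, 3.96 in SC monocytes and 10.4 in APCs, so that BM monocytes were lowest in place of SC monocytes. The sums and ratios of APCs also depended on the effective length of Mmp12. At the length of BM monocytes, Mmp12 would add 154 TPM to the APC sum in place of 496. The ratio compares transcripts, not active enzyme with inhibitor.

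**Figure D1:**
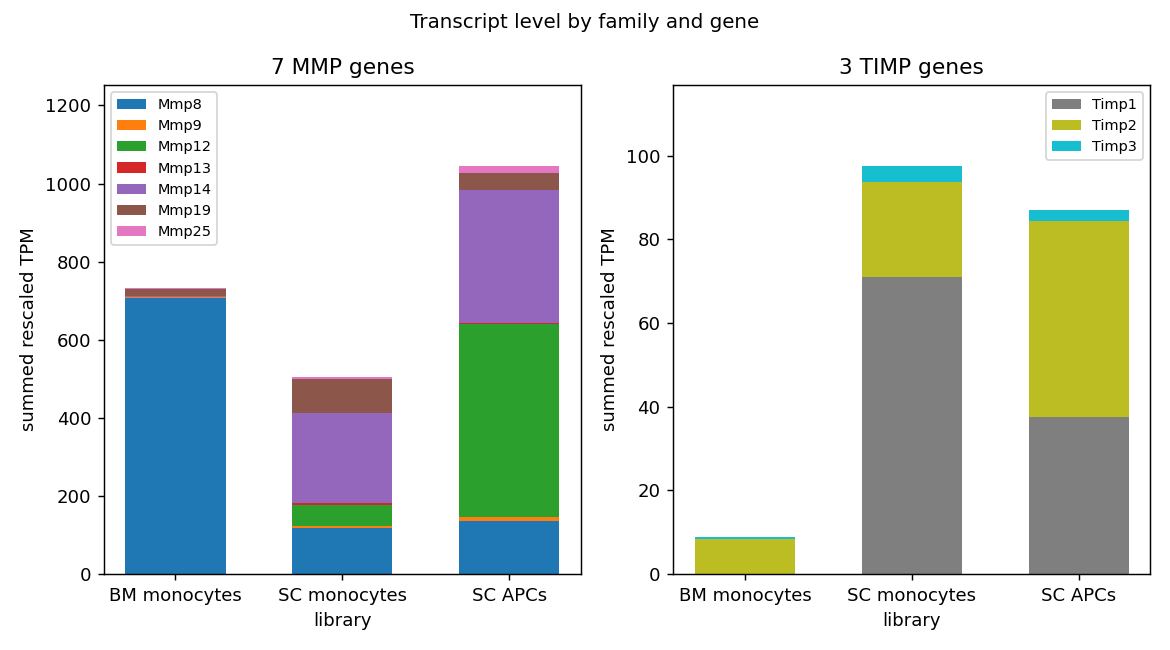
Stacked bars of rescaled TPM (vertical axis, from 0) for the 7 MMP genes (left) and the 3 TIMP genes (right) in each library (horizontal axis), 1 library a bar and without error bars. Mmp8 fills 96.5% of the BM bar, Mmp14 is the largest segment in SC monocytes at 45.9% and Mmp12 in APCs at 47.5% (by reads Mmp14 leads in APCs too), while the TIMP sum goes from 8.79 in BM monocytes to 97.4 and 87.0 in the spinal cord.

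In SC monocytes compared with BM monocytes, 7 of the 10 genes were higher, 1 was lower and 2 were not called. Across all 10072 genes over the TPM threshold, 24.6% were called, 13.6% higher and 11% lower. The median log2 fold change of the 10 genes was 2.99, also with Timp1 set to its lower bound, beside -0.17 for all genes. In APCs compared with SC monocytes, 2 of the 10 were higher, 0 were lower and 8 were not called, against 3.61% of 9734 genes, 1.94% higher and 1.66% lower. The medians were 0.36 for the 10 genes and -0.03 for all genes. In APCs compared with BM monocytes, 7 were higher and 1 was lower, against 25.8% of 10190 genes, 14% higher and 11.7% lower. The comparisons share libraries, so their values are given side by side and not as separate evidence. With reads divided by effective length, 232 genes were higher and 324 lower between APCs and SC monocytes in place of 189 and 162, and the calls of the 10 genes were the same in that comparison. With an assumed coefficient of variation of 0.4 between libraries, added to the interval, the calls of Mmp8, Mmp9 and Mmp19 in SC monocytes were lost.

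**Figure D2:**
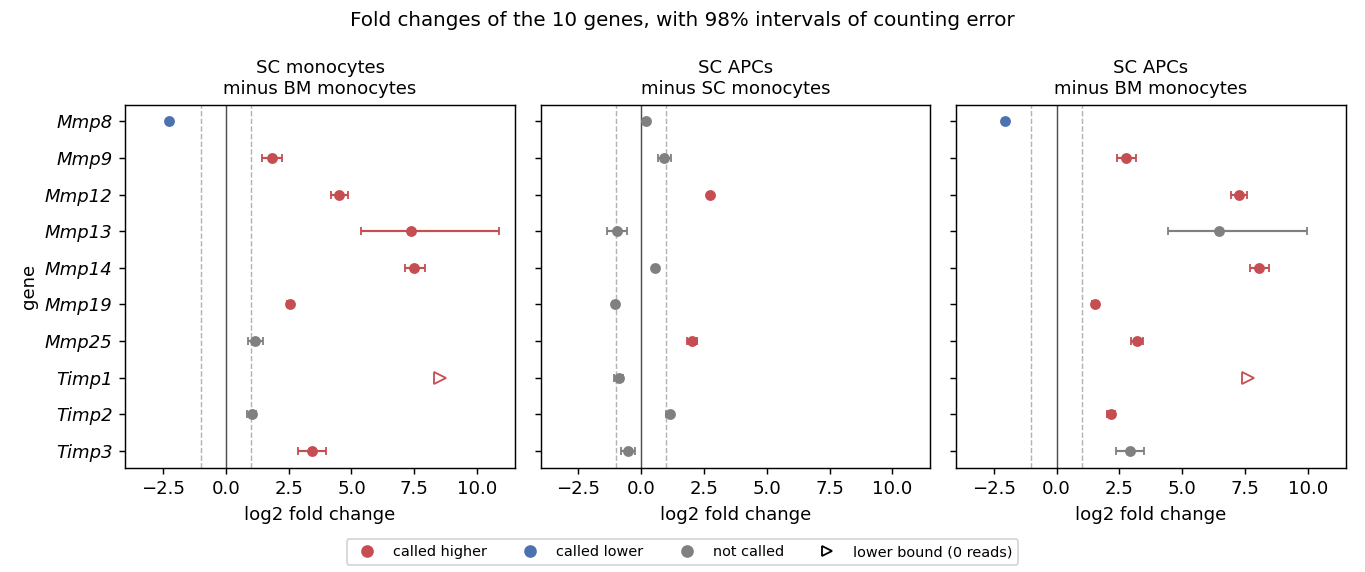
Log2 fold changes (horizontal axis) of the 10 genes (vertical axis) in the 3 comparisons, with bars for the 98% interval of counting error, dashed lines at a 2-fold change, and colours for genes called higher, lower or not called. Open triangles mark Timp1, which had 0 reads in BM monocytes, at its lower bound. Most genes lie to the right in the left and right panels, with Mmp8 alone to the left, and only Mmp12 and Mmp25 are called in the middle panel.

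The 2 secreted collagenases of the list, Mmp8 and Mmp13, both lie in the MMP cluster of chromosome 9 and moved in opposite directions between BM and SC monocytes. Promoter sequence is shown for them and for Mmp12 of the same cluster because these 3 neighbours had 3 different patterns. RefSeq gives Mmp12 a pair of starts, at 7344397 and 7347374, and both are shown. The 150 bases before each RefSeq start on the plus strand of GRCm38.p6 are chr9:7558279-7558428 for Mmp8, chr9:7344247-7344396 and chr9:7347224-7347373 for the upstream and downstream start of Mmp12, and chr9:7272364-7272513 for Mmp13. Capitals mark a match to TGANTCA, where N is any base, a motif that reads the same on both strands. It is wider than the site of AP-1 factors, which has C or G at N, as both matches shown do.
Mmp8: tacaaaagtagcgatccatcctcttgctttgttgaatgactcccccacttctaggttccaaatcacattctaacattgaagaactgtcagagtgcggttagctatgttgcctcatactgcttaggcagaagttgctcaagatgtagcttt
Mmp12, upstream start: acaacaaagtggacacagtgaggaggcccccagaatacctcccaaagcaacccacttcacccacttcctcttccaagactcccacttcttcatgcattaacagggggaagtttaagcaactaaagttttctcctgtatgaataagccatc
Mmp12, downstream start: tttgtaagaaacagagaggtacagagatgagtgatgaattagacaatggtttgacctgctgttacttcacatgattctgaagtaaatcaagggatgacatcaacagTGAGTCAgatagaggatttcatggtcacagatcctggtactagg
Mmp13: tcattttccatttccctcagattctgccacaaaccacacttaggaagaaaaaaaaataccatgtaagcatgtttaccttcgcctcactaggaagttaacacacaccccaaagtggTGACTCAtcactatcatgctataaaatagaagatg
The match began 44 bases before the downstream start of Mmp12 and 35 before the start of Mmp13, and the window of the upstream start of Mmp12, the one near the annotated start of the gene, held none. Over windows from 250 bases before to 50 after the start, 2 of the 9 windows of the 8 members in the RefSeq table held the letters, and 7.81% of all 32851 windows did. A match is a description of the letters and not a bound site.

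Mmp8 (chr9:7558456-7568485, plus strand, GRCm38) had 32726 reads in BM monocytes, 4947 in SC monocytes and 6235 in APCs. Its level was 707 TPM (95% interval 699 to 715), 119 TPM (116 to 122) and 137 TPM (134 to 141). It ranked at place 212 among all genes in BM monocytes and was high there and lower in both spinal cord libraries. Mmp8 fell by 2.27 on the log2 scale from BM to SC monocytes (98% interval -2.32 to -2.22), which is 4.81-fold, and the log2 difference between APCs and SC monocytes was 0.19 (0.12 to 0.25), not called.

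Several markers of other cells were, like Mmp8, lower in SC than in BM monocytes. The 9 neutrophil markers summed to 1644 TPM in BM monocytes, 251 in SC monocytes and 370 in APCs, with 6 of 9 lower and 2 higher in SC than in BM monocytes. The 2 higher ones were Retnlg (1.77 and 16.7 TPM) and Cxcr2 (2.56 and 9.10 TPM). Among all genes over the threshold in that comparison, 13.6% were higher and 11% lower. In APCs compared with BM monocytes, 4 of the 9 were lower, 2 higher and 3 not called, beside 11.7% lower and 14% higher of all genes. Those not called included Ltf (27.6 TPM in BM monocytes and 34.1 in APCs) and Ngp (186 and 157 TPM). The most abundant neutrophil marker was Lcn2 in BM monocytes (1038 TPM) and SC monocytes (144 TPM) and Ngp in APCs (157 TPM). The defining marker Ly6g, which the sort excluded, had 38, 22 and 24 reads, or 2.57, 1.71 and 1.64 TPM. The 4 markers of granulocyte precursors (Mpo, Elane, Prtn3 and Ctsg) summed to 630, 62.5 and 22.9 TPM, led by Prtn3, and all 4 were lower in SC monocytes. Their part in the Mmp8 result was not tested.

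Mmp13 (chr9:7272514-7283331, plus strand), collagenase 3, had 1 read in BM monocytes, 203 in SC monocytes and 116 in APCs. The levels were 0.0194, 4.37 (3.79 to 5.02) and 2.30 TPM (1.90 to 2.75), so it was nearly absent from the BM library and low in both others. It rose in SC monocytes, with a ratio of 167 that rests on 1 read and has a 98% interval of 41.7 to 1892. In APCs compared with SC monocytes its log2 fold change was -0.95 (-1.35 to -0.57), not called. APCs compared with BM monocytes were not called because neither library was over 3 TPM.

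Mmp12 (chr9:7344381-7369499, plus strand) had the largest fold change of the 10 genes between the spinal cord populations. It had 108 reads in BM monocytes, 1789 in SC monocytes and 13171 in APCs, which is 1.23 TPM (1.01 to 1.49), 53.9 TPM (51.4 to 56.5) and 496 TPM (487 to 504). The level stepped up from BM to SC monocytes and again to APCs, where it ranked at place 302. Reads rose 22.6-fold in the first step (98% interval 18.1 to 28.7) and 6.65-fold in the second (6.27 to 7.05). The size of both changes depended on length. The effective length given above is the mean over its transcripts weighted by their abundance. Of its 7 annotated transcripts, the longest coding one has 3607 bases and the 1 longer than that, a retained intron, 4474. The APC values came from another set of transcripts, in which 97.7% of the genes found in the annotation are protein-coding, against 40.1% for each monocyte library, so that set and the cells cannot be told apart in this length. When reads were divided by length, the log2 fold change was 5.66 in place of 4.50 in the first step and 3.28 in place of 2.73 in the second. Exons of Mmp12 overlap those of Mmp1b on the other strand, which had 0 reads in each library.

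Mmp9 (chr2:164940780-164955850, plus strand), gelatinase B, had 92, 238 and 499 reads in BM monocytes, SC monocytes and APCs. It stood at 1.82 TPM (1.47 to 2.24), 4.24 TPM (3.72 to 4.81) and 8.18 TPM (7.48 to 8.93). This order was the same as for Mmp12, at a far lower level. The first step was called, at a log2 fold change of 1.82 (1.42 to 2.24), and the second, at 0.92 (0.66 to 1.19), was not. The first call was lost with an assumed coefficient of variation of 0.2 between libraries and with a plain 2-fold change of TPM plus 1 (log2 0.89).

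**Figure D3:**
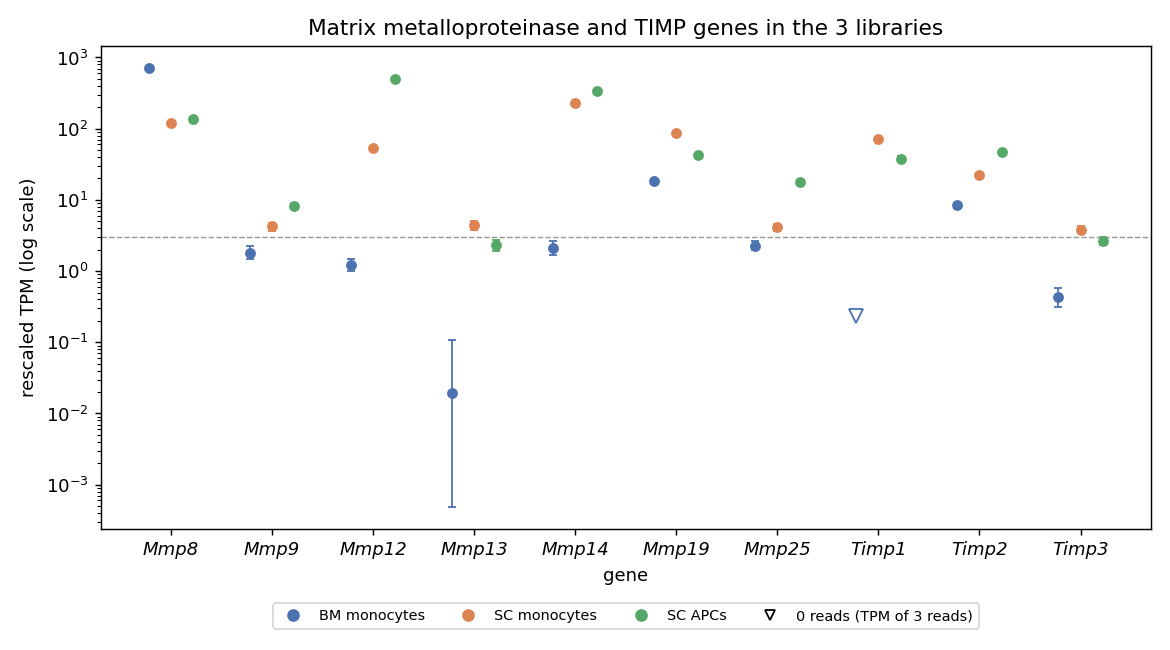
Rescaled TPM (vertical axis, log scale) of each gene (horizontal axis) in the 3 libraries, with bars for the 95% exact interval of counting error where larger than the symbol, and a dashed line at the threshold of 3 TPM. The open triangle stands for 0 reads of Timp1 in BM monocytes, drawn at the TPM of 3 reads (0.234). Mmp8 is highest in BM monocytes at 707 TPM, and the other 9 genes are lowest there.

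Mmp14 (chr14:54431612-54445364, plus strand) encodes MT1-MMP, a membrane-bound collagenase that also opens the precursor of Mmp2 at the cell surface. It had 76 reads in BM monocytes, 10139 in SC monocytes and 16343 in APCs. Its level was 2.10 TPM (1.66 to 2.63), 232 TPM (227 to 236) and 339 TPM (334 to 345). It was close to the threshold in the marrow and among the abundant genes in the spinal cord, at place 645 in SC monocytes and 421 in APCs. Mmp14 rose 182-fold in SC monocytes (98% interval 141 to 240), and its log2 fold change from there to APCs, 0.54 (0.50 to 0.58), was not called. The size of the rise depended on effective length, which was 1691 bases in BM and 2259 in SC monocytes. With reads divided by this length, the log2 fold change was 6.99 in place of 7.51, still called.

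Mmp25 (chr17:23628311-23645277, minus strand), a protease tethered to the membrane by a lipid anchor and known from neutrophils, had 208 reads in BM monocytes, 341 in SC monocytes and 1531 in APCs. This is 2.28 TPM (1.98 to 2.61), 4.14 TPM (3.71 to 4.60) and 17.7 TPM (16.8 to 18.6). The level was higher in SC than in BM monocytes, with intervals that did not overlap, and highest in APCs. The log2 fold change was 1.17 (0.88 to 1.47) in the first step, not called, and 2.02 (1.82 to 2.22) in the second, called higher. Both calls between APCs and SC monocytes, of Mmp12 and of Mmp25, were lost with an assumed coefficient of variation of 0.4 between libraries.

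Mmp19 (chr10:128790910-128800824, plus strand), which cuts basement membrane proteins, was the only MMP besides Mmp8 over 3 TPM in BM monocytes. Reads were 1033 in BM monocytes, 4429 in SC monocytes and 2397 in APCs. Its level was 18.1 TPM (17.0 to 19.3), 87.7 TPM (85.1 to 90.3) and 42.9 TPM (41.2 to 44.7). SC monocytes were highest and APCs lay between the other libraries. It rose 5.89-fold in SC monocytes (5.44 to 6.39), and the log2 fold change of APCs against SC monocytes, -1.03 (-1.12 to -0.95), was not called because its interval crossed a 2-fold change. The gene shares exons with Tmem198b on the other strand, which had 208, 224 and 223 reads, and with the antisense gene Gm47093, which had 0 reads in both monocyte libraries and is not among the genes of the APC library. The strand setting of the counting is not given in the sources used here.

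Among the inhibitors, Timp1 (chrX:20870166-20874735, plus strand), a secreted inhibitor of most soluble MMPs, had 0 reads in BM monocytes, 801 in SC monocytes and 476 in APCs. Its level was 0 TPM, where 3 reads would be 0.234 TPM, then 71.0 TPM (66.2 to 76.1) and 37.5 TPM (34.2 to 41.0). It was not detected in the marrow library and was the most abundant TIMP of SC monocytes. Timp1 was at least 367-fold higher in SC than in BM monocytes and at least 199-fold higher in APCs, counting the 0 as 3 reads. Its log2 fold change between APCs and SC monocytes was -0.90 (-1.09 to -0.70), not called.

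Timp2 (chr11:118301069-118355740, minus strand) encodes the inhibitor that also links MT1-MMP to the precursor of Mmp2. It had 494, 730 and 1778 reads, and 8.36 TPM (7.64 to 9.13), 22.5 TPM (20.9 to 24.2) and 46.8 TPM (44.7 to 49.0). It was the main TIMP of BM monocytes, at 95.1% of the TIMP sum, and of APCs, at 53.8%. The lead of Timp2 in APCs depended on its effective length, which was 1822 bases there. At its length in BM monocytes, 2767 bases, Timp2 would stand below Timp1 in APCs. Neither step passed the rule, with log2 fold changes of 1.02 (0.83 to 1.22) and 1.14 (0.99 to 1.28), while the difference between APCs and BM monocytes, 2.17 (2.01 to 2.35), did. Both steps lay close to the 2-fold threshold. The first was called with reads divided by effective length (1.65), since the effective length was 2767 bases in BM and 1672 in SC monocytes, and the second when libraries were scaled by total reads (1.17). Both were called as plain 2-fold changes of TPM plus 1 (1.33 and 1.02).

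Timp3 (chr10:86300372-86349506, plus strand), an inhibitor that binds to the matrix and also blocks Adam17, had 41, 323 and 249 reads. Its level stayed low, at 0.430 TPM (0.309 to 0.583), 3.80 TPM (3.40 to 4.24) and 2.67 TPM (2.35 to 3.02). It rose 10.7-fold in SC monocytes (7.41 to 16.0), a call that a threshold of 4 TPM removes. The log2 fold change between APCs and SC monocytes was -0.52 (-0.81 to -0.24), not called. Its exons overlap those of Syn3 on the other strand, with 0, 0 and 13 reads.

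By order of level, Mmp9, Mmp12, Mmp14, Mmp25 and Timp2 were highest in APCs and lowest in BM monocytes. Mmp13, Mmp19, Timp1 and Timp3 were highest in SC monocytes and lowest in BM monocytes. Mmp8 was highest in BM monocytes and lowest in SC monocytes. For none of the 10 genes did the 95% intervals of neighbours in this order overlap, which covers counting error and not the spread between mice.

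Of the 17 other MMP and TIMP genes in the libraries, only Mmp2 was over 3 TPM in any of them. Mmp2, gelatinase A, had 1 read in BM monocytes, 173 in SC monocytes and 360 in APCs, with 4.71 TPM and 6.11 TPM in the spinal cord libraries. It was called higher in both of these than in BM monocytes, from 1 read. Mmp28 had 135 reads in BM monocytes (2.29 TPM), 12 in SC monocytes and 4 in APCs. In the chromosome 9 cluster (chr9:7272514-7699585), which holds 10 Mmp genes, 5 genes had 0 reads in all 3 libraries (Mmp1a, Mmp1b, Mmp3, Mmp7 and Mmp20). Mmp10 had 0, 1 and 3 reads and Mmp27 had 8, 19 and 24. Reads of the cluster thus came almost wholly from Mmp8, Mmp12 and Mmp13.

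Proteases and receptors that act on MMP precursors were described from lists of related genes. As for the 10 genes above, the share called among all genes over the threshold was 24.6% in SC compared with BM monocytes (13.6% higher and 11% lower), and a gene under 3 TPM in both libraries could not be called. The share called in APCs compared with SC monocytes was 3.61% (1.94% higher and 1.66% lower). For APCs compared with BM monocytes the share was 25.8% (14% higher and 11.7% lower). Of 10 genes of plasminogen activation, 7 were over the threshold, 4 were higher and 0 lower in SC than in BM monocytes, and 0 were called between APCs and SC monocytes. In APCs compared with BM monocytes 5 were higher and 1 was lower. Plau, the urokinase that makes plasmin, had 403, 4712 and 3001 reads and stood at 9.05, 118 and 68.8 TPM. Plaur, its receptor, stood at 132, 732 and 423 TPM. Plgrkt, a plasminogen receptor (39.4, 140.4 and 109 TPM), and Serpine2, an inhibitor of Plau (1.67, 5.36 and 7.32 TPM), were the other 2 genes called in SC monocytes. The most abundant genes of the list in BM monocytes went the other way. Anxa2 and S100a10, which together form a cell surface receptor for plasminogen, stood at 1345, 671 and 471 TPM and at 962, 598 and 419 TPM. Their log2 fold changes in SC compared with BM monocytes were -0.71 and -0.42, not called, and Anxa2 was the gene lower in APCs than in BM monocytes (-1.22, 98% interval -1.25 to -1.18), a call lost with an assumed coefficient of variation of 0.2 between libraries. As a plain 2-fold change of TPM plus 1, Anxa2 was also lower in SC monocytes (-1.003), and S100a10 lower in APCs than in BM monocytes (-1.20). The summed TPM of the 10 genes was 2529, 2276 and 1505, so the enzyme Plau and its receptor rose while the sum was highest in BM monocytes. Plat, the tissue activator, had 1, 110 and 161 reads and was called in APCs compared with BM monocytes, at 3.39 TPM and from 1 read, a call that a threshold of 4 TPM removes. Serpinb2, an inhibitor of Plau, had 128, 209 and 139 reads but 39.99, 8.96 and 3.93 TPM. Its direction thus turned with length. Against BM monocytes and per effective length, its log2 fold change went from 1.16 to -1.94 in SC monocytes and from 0.45 to -3.01 in APCs, not called before and called lower after. Serpinf2, an inhibitor of plasmin, had at most 7 reads in a library, and Plg itself, made by the liver, had 0 reads in each.

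Of 10 partners in activation, docking and clearance, 8 were over the threshold, and 3 were higher and 1 was lower in SC than in BM monocytes. Furin, which cuts the Mmp14 and Mmp25 precursors inside the cell, stood at 66.6, 192 and 146 TPM. Its calls against BM monocytes were lost with an assumed coefficient of variation of 0.2 between libraries. Cd63, a tetraspanin that binds Timp1, had 90, 1938 and 4603 reads and stood at 5.19, 126 and 275 TPM. It was the 1 partner called between APCs and SC monocytes, at a log2 fold change of 1.10 (1.01 to 1.19), a call lost with an assumed coefficient of variation of 0.2 and with wider percentile bounds. Timp1 was not called there. Bsg, a surface glycoprotein known to induce MMPs, was the other gene higher, at 221, 389 and 428 TPM. Its call in SC monocytes, at a log2 fold change of 1.10 (1.04 to 1.17), was lost when libraries were scaled by total reads (0.94), with reads divided by effective length (1.03) and as a plain 2-fold change of TPM plus 1 (0.81). Itgb3, an integrin chain that docks Mmp2, was the gene lower, at 11.6, 0.989 and 1.67 TPM. Cd44, a hyaluronan receptor that docks Mmp9 and Mmp14 (374, 476 and 266.5 TPM), and Lrp1, an endocytic receptor that clears MMPs and TIMPs (171, 188 and 139 TPM), were abundant and were not called in any comparison.

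Among the related proteases, 6 of 13 ADAM genes were over the threshold and 1 was called in the first step. Adam8, a sheddase of leukocytes, rose from 9.40 to 157 TPM and stood at 103 TPM in APCs. Adam10 (129, 102 and 103 TPM) and Adam17 (68.9, 99.7 and 89.0 TPM), the main surface sheddases, were not called in any comparison. The same was true of Adam9 (51.8, 87.4 and 79.1 TPM), Adam15 (102, 77.5 and 73.3 TPM) and Adam19 (13.1, 6.97 and 7.82 TPM), the others over 3 TPM. Of 19 ADAMTS genes 2 were over the threshold, and 1 of these, Adamts1, a protease of versican, was called, with 0, 328 and 1213 reads. Adamts1 was at least 150.3-fold higher in SC than in BM monocytes, and rose by a log2 fold change of 1.74 (1.53 to 1.95) from SC monocytes to APCs. This second call was lost with an assumed coefficient of variation of 0.2 between libraries. Adamts10, the other gene over the threshold, stood at 11.1, 7.34 and 4.28 TPM and was not called. As a plain 2-fold change of TPM plus 1, Adamts10 was lower in APCs than in BM monocytes (-1.20). Of 5 genes listed as other inhibitors 1 was over the threshold, Spock2. It was listed with the other Spock genes, and whether Spock2 itself inhibits MMPs was not examined. Spock2 was higher in both spinal cord libraries than in BM monocytes, at 0.245, 4.88 and 3.26 TPM. A threshold of 4 TPM removes its call in APCs. Reck, a membrane inhibitor of Mmp9 and Mmp14, did not pass 0.521 TPM in any library.

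Of 15 matrix substrates, 8 were over the threshold, 4 were higher and 2 were lower in SC than in BM monocytes. Vcan, the proteoglycan versican, fell in both steps, from 375 to 50.1 and 5.14 TPM, the opposite order to Adamts1. Fn1, fibronectin, was the most abundant in each library, at 3706, 1333 and 1401 TPM, and fell in SC monocytes. This call and that of Agrn, named below, were lost with an assumed coefficient of variation of 0.2 between libraries. Spp1, osteopontin, which several MMPs cut, rose from 7.56 to 749 TPM and stood at 939 TPM in APCs. The basement membrane genes Col4a1, Col4a2 and Agrn were the other 3 that rose in SC monocytes, none of them above 8.64 TPM. Endothelial markers were also highest in SC monocytes, with a sum of 10.1, 32.1 and 19.5 TPM and Cldn5 at 0, 11.6 and 5.63 TPM, and their part in this rise was not tested.

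Markers of the labelled cells were present. The 5 monocyte markers summed to 9854, 8156 and 2110 TPM, led by Ly6c2 in each library, and the 5 APC markers to 181, 8647 and 21505 TPM, led by Cd74 in the spinal cord libraries. Of the monocyte markers, Fcgr1 was higher in SC than in BM monocytes (81.3 and 274 TPM) and Ccr2 was lower (1629 and 299 TPM). Among all genes over the threshold in that comparison, 13.6% were higher and 11% lower. The sort divided APCs from SC monocytes by Ly6C, so the level of Ly6c2 in APCs is not separate evidence. Markers of other cells also differed between APCs and SC monocytes, where 1.94% of all genes over the threshold were higher and 1.66% lower. Of the 9 neutrophil markers 3 were higher in APCs, in the direction of Mmp12 and Mmp25, and 2 were lower. The higher ones were Ngp (24.3 TPM in SC monocytes and 157 in APCs), Ltf (9.76 and 34.1 TPM) and Retnlg (16.7 and 57.9 TPM), and the lower ones were Cd177 (32.5 and 9.03 TPM) and Padi4 (6.82 and 1.95 TPM). The 6 markers of mature dendritic cells summed to 0.847, 154 and 573 TPM, with 5 of 6 higher in APCs than in SC monocytes, and Ccl22 the most abundant in APCs at 233 TPM. Monocyte-derived APCs can express Ccl22 and Ccr7 too, so this list does not tell them from other dendritic cells. The 7 microglia markers summed to 13.001, 109 and 283 TPM, with 6 of 7 higher in APCs, although the gate took CD45-high cells. Their most abundant gene in APCs was P2ry12 (85.6 TPM), and Sall1 had 0, 300 and 1415 reads. Their part in the rise of Mmp12 and Mmp25 was not tested.

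Markers of stromal, neural and T cells were also detected in the spinal cord libraries. The 6 fibroblast markers, cells known for Mmp2, Mmp14 and Timp1, summed to 0.0365, 4.74 and 2.92 TPM, none over 3 TPM in any library. Col3a1 was the most abundant in SC monocytes, at 2.07 TPM. The endothelial sum given above, over 5 genes, was led by Pecam1. The 4 astrocyte markers summed to 2.66, 12.03 and 15.4 TPM and the 4 T cell markers to 0.347, 35.4 and 55.7 TPM. The oligodendrocyte sum, mostly Mbp, was 72.9, 49.4 and 47.3 TPM. The 6 markers of CNS-associated macrophages summed to 15.7, 36.8 and 51.1 TPM, led by Siglec1 in the spinal cord libraries (22.1 and 18.3 TPM), with Lyve1 at 0, 2 and 0 reads. Of these 6 genes Mrc1 (1.45, 6.59 and 17.9 TPM) was higher in APCs than in SC monocytes, in the direction of Mmp12 and Mmp25. The 5 markers of conventional dendritic cells (cDCs) summed to 40.8, 20.8 and 24.97 TPM. The cDC sum of BM monocytes was mostly Flt3 (37.8, 3.65 and 6.65 TPM), which was lower in SC monocytes, while Clec9a (0.108, 4.38 and 7.40 TPM) and Batf3 (2.74, 11.7 and 6.34 TPM) were higher. Between APCs and SC monocytes, 1 cDC marker and 1 astrocyte marker were higher in APCs and 0 were lower. These were Itgae (0.637 TPM in SC monocytes and 3.24 in APCs) and Slc1a2 (3.97 and 8.42 TPM). The spinal cord gate took CD45-high CD11b+ CD64+ cells, and the paper states that selection for CD64 excluded cDCs. Markers of T cells and cDCs were still detected in the spinal cord libraries, as given above. Bone marrow cells were sorted without CD64. The cords were taken by a method that, per the paper, removed the leptomeninges. The paper could not exclude a few microglia among the APCs. The part of any such cells in the results was not tested.

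**Figure D4:**
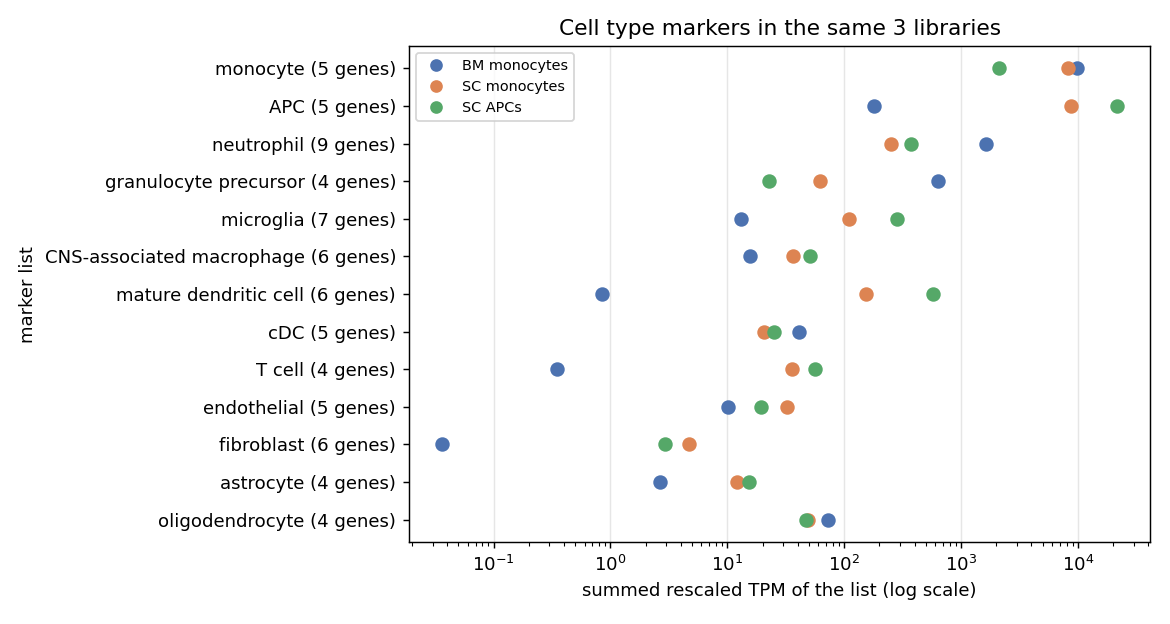
Summed rescaled TPM (horizontal axis, log scale) of 13 marker lists (vertical axis, number of genes in brackets) in the 3 libraries, 1 point a library and without error bars. Genes within a list can differ in order from its sum. The 13 sums divide into 5 (monocyte, neutrophil, granulocyte precursor, cDC and oligodendrocyte) that are highest in BM monocytes, as Mmp8 was, 2 (endothelial and fibroblast) that are highest in SC monocytes, and 6 (APC, mature dendritic cell, microglia, CNS-associated macrophage, astrocyte and T cell) that are highest in APCs, as Mmp12 and Mmp25 were.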

How the data were processed

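RNA of the 3 sorted and pooled populations was sequenced as paired 50-base reads, 1 library each. Per the submitters' processing notes, the authors used Salmon 0.14.1 and mm10, and the paper names GENCODE vM22, with transcripts pooled by gene. In the deposited TPM the authors had corrected reads for transcript length and depth. The estimated counts were deposited without normalization and held fractions of shared reads, so they were rounded. The effective lengths that the authors deposited, in bases, were used for an alternative. The APC library listed 22242 genes and each monocyte library 54432, 97.7% of those found in the annotation being protein-coding against 40.1%, so its transcript set was another one. Reads of non-coding transcripts could then be assigned to coding ones in that library only.

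The 22238 common genes held 84.9% of the TPM of BM monocytes, 85.3% of SC monocytes and nearly all of APCs. Each library's TPM was rescaled so that these genes summed alike. Depth over them was 32115707, 26116588 and 28209327 reads. GENCODE M21 on GRCm38 gave symbols and positions (99.0% of identifiers matched with their version), and RefSeq the promoters.

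The study defined differential expression by GFold, which was not used here. Its definition was computed anew as the ratio of 2 gamma posteriors of the reads with 1 added. Each pair of libraries was scaled by its own median-of-ratios factors, and percentiles 1 and 99 were the bounds. The rule was tested on simulated data. The study's threshold on log2 TPM was taken to be on TPM with 1 added, which is 3 TPM. The floor of a gene at 0 was 3 reads.

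The members and gene lists were chosen with earlier results of these data known. All members are named. Of each other list the genes over 3 TPM, up to 6 by level, and those called could be named, and genes named beyond these, such as ones at 0 reads, were chosen after their values were seen. Computation was in Python 3.11.15 (scipy 1.17.1, numpy 2.4.6, pandas 2.3.3; figures in matplotlib 3.10.9), and TMM factors alone came from edgeR 4.0.16 in R 4.3.3. The alternatives were scaling by total reads or by TMM, reads per effective length, an assumed coefficient of variation of 0.2 or 0.4 between libraries, a threshold of 4 TPM or none, percentiles 0.1 and 99.9, 0.5 reads added, a plain 2-fold change of TPM with a pseudocount of 1 or 0.1, other gene sets and TPM as deposited. Protein sequences were not analysed here. The alternatives for genes of the related lists, the ratio without Mmp8 and the level of Mmp12 at other lengths were added after seeing the data. Beside the 10 plasminogen genes described, the result of 1 further gene is not reported here.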

Additional observations from a re-analysis of the deposited data

How the results depend on the processing

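Of 370 fold changes of the 10 genes under an alternative, 347 kept their direction and call, 13 kept the direction and lost the call, 10 kept the direction and gained it, and 0 changed direction. With an assumed coefficient of variation of 0.4 between libraries, the counts of genes higher and lower became 627 and 228 in SC against BM monocytes, 43 and 14 in APCs against SC monocytes and 727 and 230 in APCs against BM monocytes. Of the 10 genes, 0 were then lower in either comparison with BM monocytes, 0 were higher in APCs than in SC monocytes (Mmp12 and Mmp25 were lost) and 4 were higher in APCs than in BM monocytes (Mmp9, Mmp19 and Timp2 were lost). With 0.2 the counts were 905 and 460, 87 and 35, and, for genes lower in APCs than in BM monocytes, 503, and the calls of Mmp9 in SC monocytes and of Mmp19 in APCs against BM monocytes were lost. Each library was given the full spread although its mice were pooled. Without a TPM threshold 2591 genes were higher in SC and 2875 in APCs than in BM monocytes, and 389 were higher and 288 lower in APCs than in SC monocytes.

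A plain 2-fold change of TPM plus 1 gave 1315 genes higher and 1890 lower in SC against BM monocytes, 528 lower in APCs against SC monocytes and 2433 lower in APCs against BM monocytes. With 0.1 in place of 1 there were 2137 lower, 351 higher and 617 lower, and 2682 lower. Both called 1 of the 10 genes, Mmp19, lower in APCs than in SC monocytes and Timp2 higher in both steps, and with 1 the call of Mmp9 in SC monocytes was lost (0.89). Reads divided by effective length gave 324 genes lower in APCs than in SC monocytes. Total reads moved the median of all genes by -0.16 in SC against BM monocytes, 0.04 in APCs against SC monocytes and -0.14 in APCs against BM monocytes, with no member changing direction. TPM as deposited was lower in the monocyte libraries, at 600.51 in place of 707 for Mmp8 in BM monocytes. Among the related genes, checked after seeing the data, the calls of Bsg, Furin, Fn1 and Agrn in SC monocytes and of Cd63 and Adamts1 between APCs and SC monocytes were lost with a coefficient of 0.2, as were those of Plgrkt, Anxa2, Furin, Bsg, Fn1 and Agrn in APCs against BM monocytes. With 0.4 those of Plgrkt, Serpine2 and Vcan in SC monocytes, and of Plaur, Serpine2, Itgb3 and Col4a1 in APCs against BM monocytes, were lost too. The call of Cd63 between APCs and SC monocytes was also lost with the wider percentile bounds, and those of Spock2, Plat and Agrn in APCs against BM monocytes with a threshold of 4 TPM. The causes were not tested beyond what each setting changes. No paired analysis was possible because each population had 1 library, and the spread between mice is not known.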

Other observations

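The genes whose levels over the 3 libraries lay nearest to those of 4 members were searched among 9975 genes, as the distance between their log2(TPM + 1) levels after subtracting each gene's mean. With 3 points a pattern, many genes lie near by construction, and no shared function or control follows. Nearest to Mmp8 were Nup107, Troap, Rin3, H2afx and Arhgef39, with distances of 0.0257 to 0.0346. Nup107, a nuclear pore protein, stood at 31.7, 4.68 and 5.46 TPM, and H2afx, a histone of dividing and damaged cells, at 122, 20.3 and 24.0 TPM. Nearest to Mmp12 were Ccl17, Klrb1b, Gm10160, Tnfrsf9 and Sparc, at the larger distances of 0.62 to 1.32. Ccl17, a chemokine of dendritic cells, stood at 0, 25.5 and 389.9 TPM, and Sparc, a matrix protein, at 0.901, 53.2 and 148 TPM.

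Nearest to Mmp14 were Nr4a3, Spp1, Slamf7, Slc7a2 and Ccl12, with distances of 0.16 to 0.36. Slc7a2, an arginine transporter, stood at 1.39, 153 and 200.1 TPM. Nearest to Timp1 were Ifi205, Gbp4, Cxcl9, Cish and Ccl7, with distances of 0.13 to 0.39. Gbp4 and Cxcl9, both known as interferon-gamma induced genes, stood at 0.998, 124.5 and 60.5 TPM and at 3.61, 459.6 and 229.7 TPM. Cish, a SOCS-family inhibitor of cytokine signals, stood at 0.244, 62.5 and 42.1 TPM.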
